A study of Mus musculus with 8 samples.

Results

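Intestinal fat absorption and chylomicron genes were followed in mouse small intestinal organoids as 10 genes, namely Fabp1, Fabp2, Fabp6, Apoa1, Apoa4, Apob, Apoc3, Mttp, Dgat1 and Dgat2, of 32110 gene names on the array. They were chosen by symbol, and every array probe whose RefSeq accession belongs to one of these symbols was taken, with the brightest probe standing for the gene. Of the 10 genes, 9 passed the filter on dim probes and were tested among 19255 genes. Fabp6 did not pass.

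The organoids are 3-dimensional epithelial cultures grown in Matrigel from 2 independently established wild-type lines. The 4 culture conditions, held for 6 days in each line, were CHIR99021 at 3 µM, valproic acid (VPA) at 1 mM, both compounds together at these doses, and control. CHIR99021 inhibits the kinase GSK3 and so activates Wnt signalling, and VPA inhibits histone deacetylases. Each of the 8 two-colour arrays carried the sample in Cy5 and control RNA of the same line in Cy3, without a dye swap, so the 2 control arrays carry control RNA in both dyes. A group therefore holds 2 arrays, 1 per line, and each line lies on its own slide, so that line and slide cannot be told apart. The cultures hold epithelium without lymphatic vessels. Of 10 markers of non-epithelial cells, 7 passed the filter on dim probes, while Col3a1, Pecam1 and Cdh5 did not. Against control, the 7 had median log2 differences of 0.01 with CHIR99021, 0.03 with VPA and 0.06 with both compounds. The collagen gene Col1a1, named after its values were seen, rose with VPA (0.79, adjusted p = 0.0217) and with both (1.01, adjusted p = 0.00669). Vim had the widest differences of the list, at 1.31 with VPA and 2.85 with both, and did not pass (adjusted p = 0.52 and 0.137). The part of these markers in the results was not tested.

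In the absorptive cell of the small intestine, fatty acids and monoglycerides from digested fat are taken up, bound by small cytosolic carriers and joined again into triglyceride in the endoplasmic reticulum. The triglyceride is loaded onto apolipoprotein B by the microsomal triglyceride transfer protein, further apolipoproteins are added, and the particle leaves towards the lymph as a chylomicron. In the intestine these genes are best known as genes of the mature enterocyte on the villus. They are therefore often read together with brush border genes.

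The levels given are log2 ratios of Cy5 to Cy3, where 0 means the same signal as the control RNA on that array and each unit is a doubling. The differences are between group means of these ratios, given ± SE with 2 arrays per group. They were tested with limma, and p-values were adjusted by Benjamini-Hochberg over all 19255 genes with a threshold of 0.05. No spot was saturated, and 60.6% to 64.6% of spots per array were well above background in Cy5. On the control arrays the 9 tested genes had log2 ratios between −0.74 (Apoa4, line 2) and 0.49 (Fabp1, line 2).

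**Figure D1:**
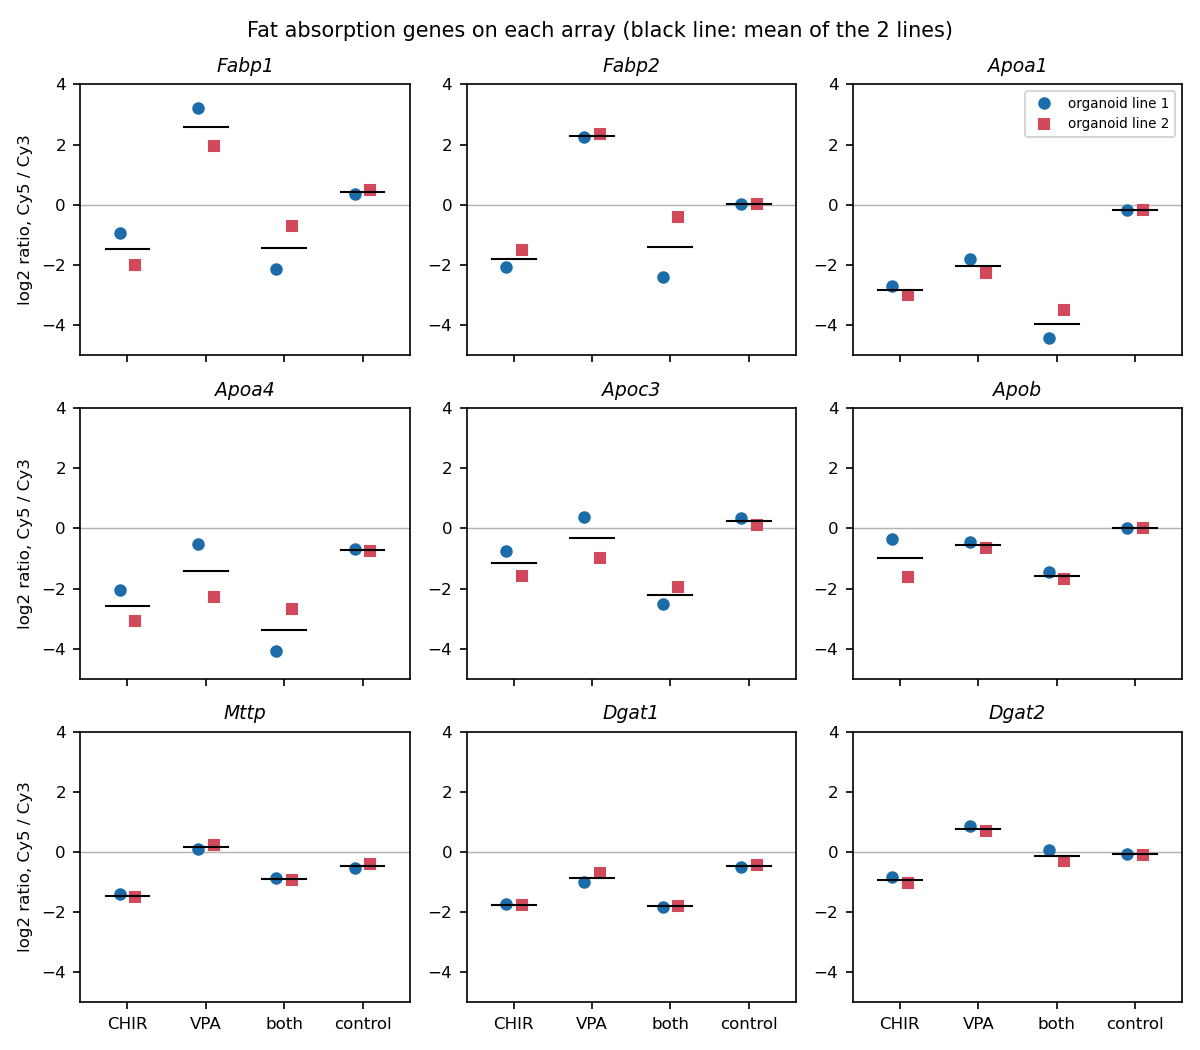
Log2 ratio of Cy5 to Cy3 (vertical axis) of the 9 tested genes in the 3 treated groups and in control organoids (horizontal axis), with 1 point per organoid line and a black line at the mean of the 2 lines. Fabp1 and Fabp2 are above 1.9 on both VPA arrays and below 0 on all arrays with CHIR99021, while Apoa1 is below −1.8 on all 6 treated arrays.

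The fatty acid carriers Fabp1 and Fabp2 had the widest spread of ratios among arrays. Fabp1 encodes the liver-type fatty acid binding protein, which is also abundant in the proximal intestine, and Fabp2 encodes the intestinal type. Their promoters are shown because the ratios of both genes lay above control with VPA and below it with CHIR99021, alone or added to VPA. In Cy5 alone their VPA differences were unlike, as given below. The promoters are windows of 300 bases around the gene start that RefSeq gives on build GRCm38.p6. The Fabp1 promoter lies at chr6:71199629-71199928 on the plus strand and the Fabp2 promoter at chr3:122894822-122895121 on the plus strand. Capitals mark letters that match a searched motif.
Fabp1: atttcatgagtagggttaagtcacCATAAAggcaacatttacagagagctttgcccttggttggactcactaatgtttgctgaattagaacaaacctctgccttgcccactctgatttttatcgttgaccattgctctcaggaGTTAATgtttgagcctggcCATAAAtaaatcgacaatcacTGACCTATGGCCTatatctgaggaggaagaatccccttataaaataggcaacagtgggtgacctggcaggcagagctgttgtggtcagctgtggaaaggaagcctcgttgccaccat
Fabp2: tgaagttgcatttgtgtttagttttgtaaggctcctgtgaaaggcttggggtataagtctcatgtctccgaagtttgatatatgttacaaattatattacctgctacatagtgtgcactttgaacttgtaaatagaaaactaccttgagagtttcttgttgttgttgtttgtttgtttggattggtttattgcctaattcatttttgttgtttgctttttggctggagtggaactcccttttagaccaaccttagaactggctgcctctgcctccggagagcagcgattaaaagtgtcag

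On both strands, 7 motifs were searched: the HNF4 motif CAAAGTCCA, the single DR1 repeat CAAAGGTCA, the motif of GATA factors AGATAA, the motif of CDX factors TTTATG, the TCF/LEF motif ATCAAAG, the partial HNF1 motif GTTAAT and the DR1 pair, of the kind bound by PPAR with RXR. The last of these was added after the sequences had been seen. In the Fabp1 promoter, the CDX letters matched the minus strand at positions −226 to −221 and −88 to −83 from the gene start. There the HNF1 letters matched the plus strand at −107 to −102 and the DR1 pair matched at −67 to −55. The CDX letters are held by 11.9% of 32851 promoters and the HNF1 letters by 7.1%. The DR1 pair is held by 0.381%. Its letters were chosen with the sequences seen, so this share cannot be read as rarity beside the others. None of the 7 motifs matched in the Fabp2 window, which says only that these letters are not in it.

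Fabp1 had log2 ratios of −0.95 in line 1 and −2.01 in line 2 with CHIR99021, 3.22 and 1.95 with VPA, −2.14 and −0.72 with both compounds, and 0.36 and 0.49 in control organoids. Fabp2 had −2.08 and −1.49 with CHIR99021, 2.24 and 2.36 with VPA, −2.39 and −0.42 with both compounds, and 0.04 and 0.03 in control organoids. For both carriers the VPA arrays were above the control arrays, and the arrays with CHIR99021, alone or added to VPA, were below them, with no overlap.

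Against control, the CHIR99021 difference was −1.91 ± 0.60 for Fabp1 (adjusted p = 0.248) and −1.82 ± 0.57 for Fabp2 (adjusted p = 0.245), and neither passed the test. The VPA difference was 2.16 ± 0.60 for Fabp1 (adjusted p = 0.0709) and 2.27 ± 0.57 for Fabp2 (adjusted p = 0.0523). Blocked by organoid line, Fabp2 passed (adjusted p = 0.0176) and Fabp1 did not (adjusted p = 0.0514). Under both compounds the differences were −1.86 ± 0.60 (adjusted p = 0.0869) and −1.44 ± 0.57 (adjusted p = 0.147).

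Set against VPA alone, the combination lowered both carriers. Fabp1 was 16.2-fold lower (−4.01 ± 0.60, adjusted p = 0.0395) and Fabp2 was 13-fold lower (−3.71 ± 0.57, adjusted p = 0.0415). These calls were lost under 10 of 18 alternatives for Fabp1 and 9 of 18 for Fabp2, with the differences below 0 throughout. The fall was −5.36 in line 1 and −2.67 in line 2 for Fabp1, and −4.63 and −2.78 for Fabp2.

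The ratios of both carriers rest in part on the Cy3 channel, which carried control RNA of the same line on each array of that line. The Cy3 signal of Fabp1 in line 1 was 61410 on the CHIR99021 array, 8978 on the VPA array, 36372 on the array with both compounds and 44047 on the control array. In line 2 it was 108228, 17214 and 15363 on the treated arrays in the same order, against 44355 on the control array. After scaling, the Fabp1 Cy3 values of a line ranged over 2.64 on the log2 scale in line 1 and 2.84 in line 2. The median gene ranged over 0.149 and 0.138, and 99.98% and 99.97% of genes ranged less than Fabp1. For Fabp2 the ranges were 1.33 and 1.02, and for the other 7 tested genes they lay between 0.05 and 0.161.

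In Cy5 alone, scaled between arrays and with the line as a block, the VPA difference of Fabp1 was 0.35 (adjusted p = 0.174), against 2.16 in the ratios. The Fabp1 Cy5 signals were 244826 and 217197 on the VPA arrays, against 161977 and 236974 on the control arrays, so in raw signal these groups overlapped. Fabp2 was higher with VPA in Cy5 alone, by 1.48 (adjusted p = 0.0442), with 246228 and 277306 on the VPA arrays against 97574 and 111051 on the control arrays. Its dimmer second probe had ratios of 2.10 and 2.12 with VPA against 0.30 and 0.25 in control organoids. The fall under both compounds against VPA held in Cy5 alone for Fabp1 (−3.05, adjusted p = 0.00846) and for Fabp2 (−2.53, adjusted p = 0.0319). Against control, Cy5 alone gave Fabp1 a difference of −1.09 with CHIR99021 (adjusted p = 0.0367) and −2.70 with both compounds (adjusted p = 0.00061), both past the threshold.

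**Figure D2:**
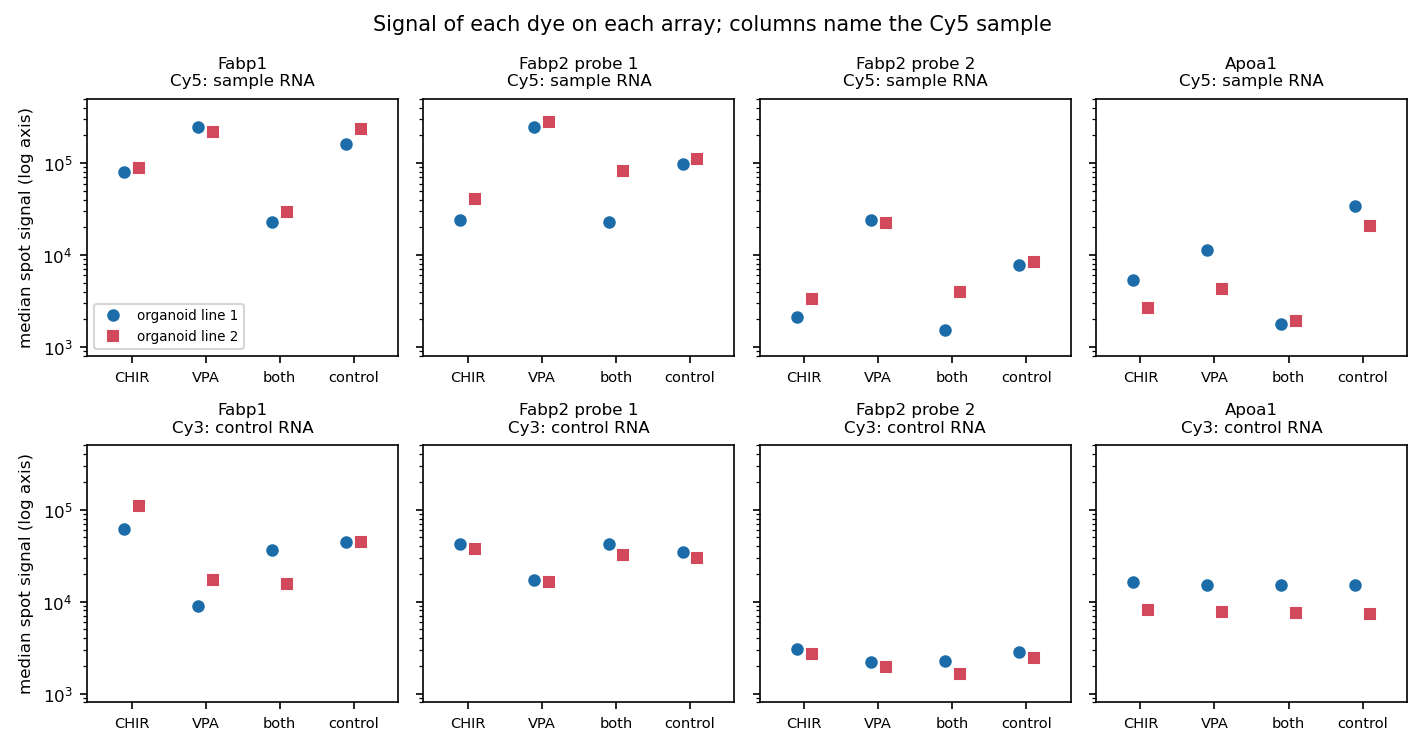
Median spot signal (vertical log axis) of Fabp1, of the brighter and the dimmer Fabp2 probe, and of Apoa1 in Cy5 (upper row) and Cy3 (lower row) on the 3 treated arrays and the control array of each line. The Cy3 row shows control RNA throughout, and its Fabp1 values lie between 8978 and 108228 while those of Apoa1 lie between 7343 and 16156.

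Fabp6, the ileal bile acid binding protein, was not well above background in either dye on any of the 8 arrays. Its single probe had Cy5 signals of 114 to 146 and Cy3 signals of 37 to 44, so no difference is given for it. Other genes of ileal bile acid handling were measurable, and the bile acid importer Slc10a2 and the hormone gene Fgf15 passed the filter. The Slc10a2 difference was −0.09 with CHIR99021, −0.26 with VPA and −0.54 with both compounds (adjusted p = 0.893, 0.346 and 0.0569). Fgf15 differed by −0.05, 0.02 and 0.51 (adjusted p = 0.978, 0.977 and 0.315).

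Apolipoproteins coat the particle, and 4 were measured. Apoa1 is the main protein of high density lipoprotein and a chylomicron surface protein, Apoa4 is an intestinal apolipoprotein of chylomicrons, Apoc3 slows lipolysis of the particle in blood, and Apob is its structural backbone. Apoa1, Apoc3 and Apoa4 are neighbours in this order on chromosome 9 in the RefSeq annotation, and Apob lies on chromosome 12. The promoters of Apoa1 and Apoa4 are shown because Apoa1 fell with VPA and Apoa4 did not pass that test. The 2 genes were not tested against each other. Their VPA differences were −1.64 and 0.16 in line 1, and −2.09 and −1.54 in line 2. On GRCm38.p6 they lie at chr9:46228380-46228679 and chr9:46240594-46240893, both on the plus strand, and none of the 7 motifs matched in either.
Apoa1: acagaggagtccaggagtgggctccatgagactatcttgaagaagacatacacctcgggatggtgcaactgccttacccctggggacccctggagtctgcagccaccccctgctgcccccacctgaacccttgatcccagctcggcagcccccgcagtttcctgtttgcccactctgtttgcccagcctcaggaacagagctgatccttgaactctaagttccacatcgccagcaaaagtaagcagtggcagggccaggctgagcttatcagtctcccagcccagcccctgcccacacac
Apoa4: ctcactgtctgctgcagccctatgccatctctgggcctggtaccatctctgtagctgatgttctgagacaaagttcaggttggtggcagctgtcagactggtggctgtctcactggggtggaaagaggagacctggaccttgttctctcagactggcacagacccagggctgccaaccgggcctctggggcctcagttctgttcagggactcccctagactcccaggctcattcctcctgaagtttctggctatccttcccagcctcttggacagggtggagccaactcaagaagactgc

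Apoa1 had log2 ratios of −2.71 and −2.99 with CHIR99021, −1.81 and −2.25 with VPA, −4.43 and −3.48 with both compounds, and −0.18 and −0.16 in control organoids. All 6 treated arrays lay below both control arrays, and the 2 arrays with both compounds lay below all others. The gene fell 6.4-fold with CHIR99021 (−2.68 ± 0.31, adjusted p = 0.0213), 3.64-fold with VPA (−1.87 ± 0.31, adjusted p = 0.0158) and 13.8-fold with both (−3.79 ± 0.31, adjusted p = 0.00124). Apoa1 and Mttp were the 2 members past the threshold in all 3 comparisons with control, and only Apoa1 had the same direction in each. The Apoa1 call was lost under 7 of 20 alternatives with CHIR99021 and under 4 of 20 with VPA. With both compounds it was kept under all 20, whereas the Mttp call with both compounds was lost under most alternatives. The 1 Apoa1 probe is spotted 10 times per array, more than any other member.

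The combination also lowered Apoa1 against VPA alone (−1.92 ± 0.31, adjusted p = 0.0473), while against CHIR99021 alone the difference was −1.11 ± 0.31 (adjusted p = 0.0719). On the log2 scale, the CHIR99021 difference with VPA present minus that without VPA was 0.75 ± 0.43 (adjusted p = 1). The 95% interval of this departure ran from −0.28 to 1.79.

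Apoa4 had log2 ratios of −2.04 and −3.08 with CHIR99021, −0.53 and −2.28 with VPA, −4.06 and −2.67 with both compounds, and −0.69 and −0.74 in control organoids. Apoc3 had −0.74 and −1.57 with CHIR99021, 0.37 and −1.0 with VPA, −2.51 and −1.93 with both compounds, and 0.35 and 0.13 in control organoids. In both genes the VPA array of line 1 lay close to its control and that of line 2 lay below, so the VPA and control groups overlapped.

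Both genes fell with both compounds. Apoa4 was 6.29-fold lower (−2.65 ± 0.68, adjusted p = 0.0441) and Apoc3 5.5-fold lower (−2.46 ± 0.48, adjusted p = 0.0177) than in control organoids. With CHIR99021 alone the differences were −1.85 ± 0.68 for Apoa4 (adjusted p = 0.319) and −1.40 ± 0.48 for Apoc3 (adjusted p = 0.282), and with VPA alone −0.69 ± 0.68 (adjusted p = 0.593) and −0.55 ± 0.48 (adjusted p = 0.531). The second Apoc3 probe gave −1.34 with CHIR99021, −0.54 with VPA and −2.31 with both compounds.

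Apob had log2 ratios of −0.37 and −1.60 with CHIR99021, −0.45 and −0.66 with VPA, −1.45 and −1.68 with both compounds, and 0.03 and 0.01 in control organoids. All treated arrays lay below the control arrays, but the CHIR99021 lines differed by more than the VPA lines did. The fall passed the test with both compounds, at 3-fold (−1.58 ± 0.36, adjusted p = 0.0298). With CHIR99021 the difference was −1.0 ± 0.36 (adjusted p = 0.307) and with VPA −0.57 ± 0.36 (adjusted p = 0.378).

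Of the 5 Apob probes, 1 went against the others. The second probe, nearly as bright as the first, gave −1.0 with CHIR99021, −0.62 with VPA and −1.60 with both compounds. The third probe, with Cy5 signals of 620 to 1592, had ratios of 1.17 and 1.09 with VPA against 0.70 and 0.44 in control organoids, a mean difference of 0.56 where the brightest probe had −0.57. With both compounds the third probe gave −0.39. The other two probes had Cy5 signals of 151 to 280, and their differences with both compounds were −0.57 and −0.20. The statements on Apob therefore hold for its 2 brightest probes.

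**Figure D3:**
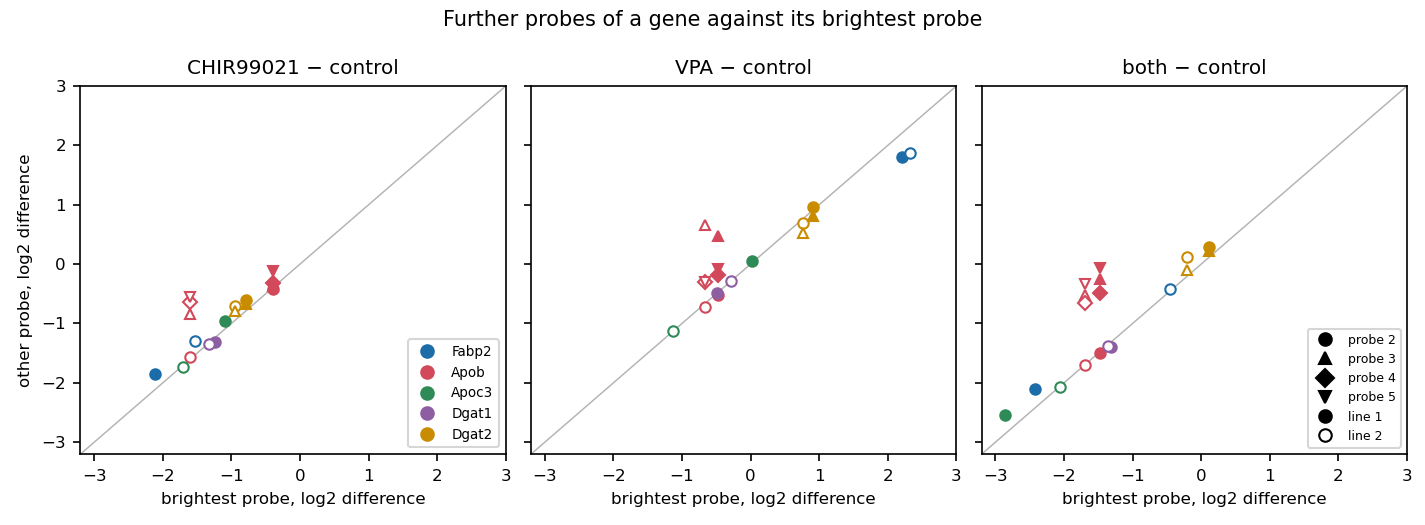
Treated minus control log2 difference of each further probe (vertical axis) against that of the gene's brightest probe (horizontal axis) for the 5 genes with several probes, with filled points for line 1 and open points for line 2. Probes of Fabp2, Apoc3, Dgat1 and Dgat2 lie near the grey line of equality, while the third Apob probe lies above 0 with VPA, where the brightest Apob probe lies below 0.

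Mttp encodes the transfer protein that loads lipid onto Apob. Its log2 ratios were −1.40 and −1.50 with CHIR99021, 0.10 and 0.25 with VPA, −0.86 and −0.94 with both compounds, and −0.54 and −0.39 in control organoids. The 4 groups did not overlap. Mttp fell 1.98-fold with CHIR99021 (−0.98 ± 0.10, adjusted p = 0.0179), rose 1.55-fold with VPA (0.64 ± 0.10, adjusted p = 0.0154) and fell 1.35-fold with both compounds (−0.44 ± 0.10, adjusted p = 0.0351). The call with both compounds was lost under 12 of 20 alternatives, with adjusted p between 0.000278 and 0.288 and the difference below 0 in all of them. The calls with CHIR99021 and with VPA were each lost under 7 of 20. Adding CHIR99021 to VPA lowered it by −1.07 ± 0.10 (adjusted p = 0.0173), and adding VPA to CHIR99021 raised it by 0.55 ± 0.10 (adjusted p = 0.0241). This rise kept its direction under all 19 alternatives but lost the threshold under 10 of them. Between the 2 CHIR99021 differences, with and without VPA, Mttp differed by −0.09 ± 0.15 (adjusted p = 1, 95% interval −0.44 to 0.26).

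The final step of triglyceride synthesis is catalysed by 2 unrelated enzymes, Dgat1 and Dgat2. Dgat1 had log2 ratios of −1.74 and −1.75 with CHIR99021, −1.0 and −0.71 with VPA, −1.83 and −1.78 with both compounds, and −0.51 and −0.42 in control organoids. Dgat2 had −0.84 and −1.04 with CHIR99021, 0.85 and 0.68 with VPA, 0.06 and −0.30 with both compounds, and −0.06 and −0.09 in control organoids. All treated arrays were below control for Dgat1, whereas for Dgat2 the CHIR99021 arrays were below control, the VPA arrays above, and the arrays with both compounds on either side.

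Dgat1 fell 2.42-fold with CHIR99021 (−1.28 ± 0.11, adjusted p = 0.0142) and 2.53-fold with both compounds (−1.34 ± 0.11, adjusted p = 0.00139). With VPA its difference was −0.39 ± 0.11 (adjusted p = 0.082, and 0.0397 with the line as a replicate block). Dgat2 rose 1.79-fold with VPA (0.84 ± 0.15, adjusted p = 0.0182). Its difference was −0.87 ± 0.15 with CHIR99021 (adjusted p = 0.0545, and 0.0153 with the block) and −0.05 ± 0.15 with both compounds (adjusted p = 0.879, 95% interval −0.39 to 0.30).

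Adding VPA to CHIR99021 raised Dgat2 by 0.82 ± 0.15 (adjusted p = 0.0197), against −0.06 ± 0.11 for Dgat1 (adjusted p = 0.8). The Dgat2 call was lost under 6 of 19 alternatives. Adding CHIR99021 to VPA lowered Dgat1 by −0.95 ± 0.11 (adjusted p = 0.0242), and Dgat2 differed by −0.89 ± 0.15 (adjusted p = 0.051, and 0.0133 with the block). The second Dgat1 probe gave −1.33, −0.39 and −1.39 with CHIR99021, VPA and both compounds. The second and the third Dgat2 probe gave −0.66 and −0.73 under CHIR99021, 0.83 and 0.67 under VPA, and 0.21 and 0.05 under both compounds.

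**Figure D4:**
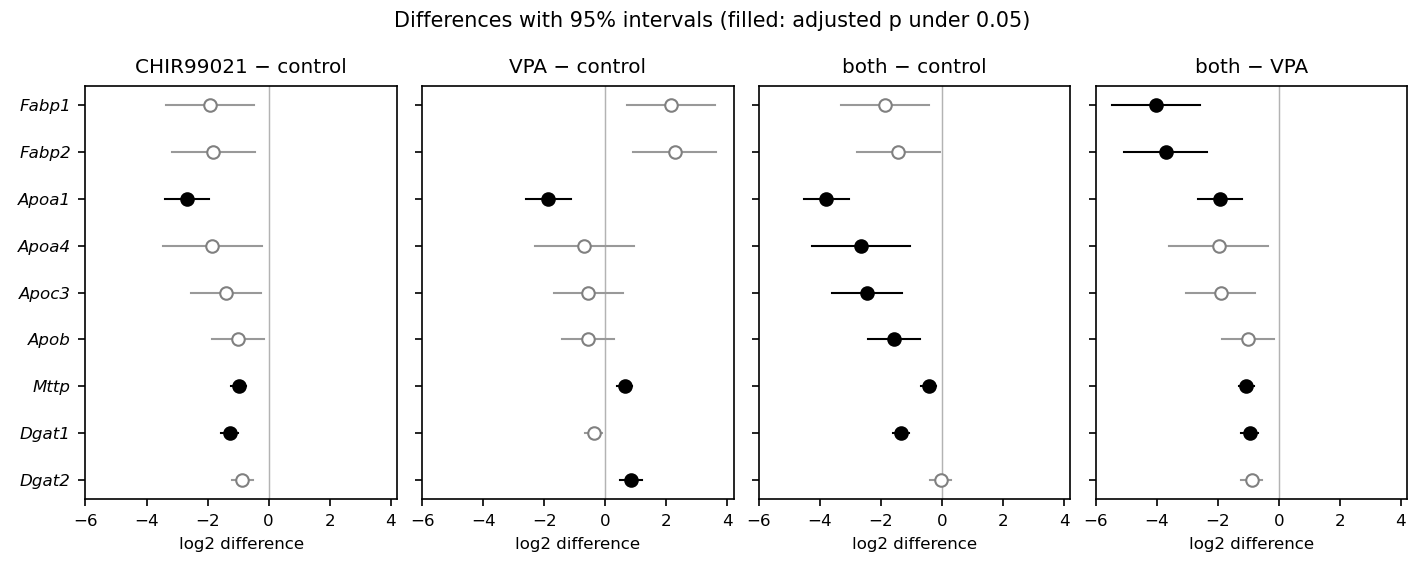
Log2 difference (horizontal axis) with its 95% interval for the 9 tested genes, for CHIR99021, VPA and both compounds minus control and for both compounds minus VPA. Filled points have an adjusted p under 0.05, and Apoa1 is filled in all 4 panels, while Fabp1 and Fabp2 are filled only for both compounds minus VPA.

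Counted by treatment, CHIR99021 lowered 3 of the 9 tested genes (Apoa1, Mttp and Dgat1) and raised none, where 1.12% of all genes tested passed the threshold, 1.01% lower and 0.114% higher. All 9 lay below control on both arrays, and 25.3% of all genes did so. The median difference of the 9 was −1.40, against 0.01 over all genes. Without either control array or either CHIR99021 array, none of these calls held, and far fewer of all genes passed as well. In those fits the differences lay between −2.82 and −2.54 for Apoa1, −1.06 and −0.91 for Mttp, and −1.32 and −1.24 for Dgat1. Without either array of both compounds, more members and more of all genes passed.

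VPA raised Mttp and Dgat2 and lowered Apoa1, so that 3 of 9 passed where 10.9% of all genes did, 6.58% higher and 4.27% lower. With the replicate block, 5 passed, adding Fabp2 (higher) and Dgat1 (lower), where 3745 of all genes passed against 2090 without the block. No overlap with control was seen for 4 higher and 3 lower genes, where 28.9% of all genes were higher and 28.5% lower without overlap. The median of the 9 was −0.39, but by line it was 0.16 in line 1 and −0.29 in line 2. Without either control array none of these calls held, and far fewer of all genes passed as well. Without either array of both compounds, more members and more of all genes passed. Without the line 1 VPA array Apoa1 and Mttp passed, and without the line 2 VPA array Dgat1 and Dgat2 did.

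Under both compounds 6 of 9 genes fell and none rose: Apoa1, Apoa4, Apoc3, Apob, Mttp and Dgat1. Of all genes, 15.5% passed, 8.43% higher and 7.09% lower, and 29% lay below control without overlap, against 8 of the 9 members. The median was −1.58, against 0.01 over all genes. Without either control array, or without the line 1 array of both compounds, fewer members passed, and so did fewer of all genes. The falls of Apoa1 and Dgat1 passed under all 20 alternatives. The call was lost under 8 of 20 for Apoa4, 6 of 19 for Apob, 3 of 20 for Apoc3 and 12 of 20 for Mttp.

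Against VPA alone, the combination lowered 5 of the 9 (Fabp1, Fabp2, Apoa1, Mttp and Dgat1), where 1.12% of all genes passed (1.03% lower and 0.0883% higher), and all 9 lay lower without overlap, as did 17% of all genes. The median was −1.91. The calls of Apoa1 and Dgat1 were each lost under 12 of 19 alternatives, and that of Mttp under 7 of 19. Those of Fabp1 and Fabp2 were lost under 10 and 9 of 18. Leaving out any 1 array lost 1 or more of these calls, and in each such fit fewer of all genes passed too. None of the calls held without either control array or the line 2 VPA array. Against CHIR99021 alone, 2 of 9 were higher (Mttp and Dgat2) where 10% of all genes passed, 6.21% higher and 3.81% lower. Without either control array or the line 1 CHIR99021 array both calls were lost. Without the line 2 CHIR99021 array both were also lost, and the Apob difference was −1.20. Without the line 1 array of both compounds both were lost too, and the Fabp2 difference was 1.37. Fewer of all genes passed in these fits as well. Here 2 were higher without overlap, where 27.1% of all genes were, and 3 were lower, where 24.3% were.

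No member passed the test for a departure from additivity of the 2 compounds on the log2 scale, and of all genes 0% passed with limma (511 genes had an unadjusted p under 0.05). The departures of Fabp1 (−2.11 ± 0.85, 95% interval −4.14 to −0.07) and Fabp2 (−1.88 ± 0.81, 95% interval −3.81 to 0.04) were the largest of the 9. The Fabp1 interval leaves out 0 (unadjusted p = 0.0445 from limma, adjusted p = 1). In the ratios the Fabp1 values were −4.05 in line 1 and −0.16 in line 2. In Cy5 alone they were −2.36 and −1.57, and the fit gave −1.97 ± 0.22 (adjusted p = 0.309).

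Brush border genes that are not among the 10 had a lower median ratio on every treated array than on the control arrays. Of 17 such markers, 16 were tested, and their median log2 ratio in lines 1 and 2 stood at −1.16 and −1.40 under CHIR99021, −0.64 and −0.18 under VPA, −1.46 and −1.28 with both compounds, and −0.08 and −0.07 in control organoids. Of the 16, 4 fell with CHIR99021, 3 with VPA and 9 with both compounds, where 1.01%, 4.27% and 7.09% of all genes fell. None rose past the threshold, but with VPA 6 of the 16 had differences above 0, up to 0.79, and 10 below. The neutral amino acid transporter Slc6a19 had the largest change of this list with CHIR99021 (−2.76) and with both compounds (−3.70), and lactase (Lct) with VPA (−2.48, adjusted p = 0.097). Peptide transporter Slc15a1 was not well above background. In such bulk samples, fewer enterocytes and less RNA per enterocyte cannot be told apart, and the part of these shifts in the differences of the fat absorption genes was not tested.

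Markers of secretory and tuft cells moved on these arrays too. Of 8 goblet cell markers, 5 fell with VPA and 7 with both compounds, where 4.27% and 7.09% of all genes fell. Of 8 Paneth cell markers 2 fell under each of these treatments, and of 8 enteroendocrine markers 3 did. Of 7 tuft cell markers 1 fell with VPA and 2 with both compounds. With CHIR99021 none of these 4 lists had a marker past the threshold, where 1.12% of all genes passed. All 8 goblet cell markers (median −0.64, lowest −3.11) and all 7 tuft cell markers (median −0.77) had differences below 0. So did 6 of 8 enteroendocrine markers (median −0.37), while 6 of 8 Paneth cell markers lay above 0 (median 0.36). Of 9 stem cell markers tested, none passed with CHIR99021, and 8 lay above 0 (median 0.37). With VPA 1 stem cell marker fell, and with both compounds 1 did. The part of these shifts in the results was not tested.

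The surrounding pathway was described with 7 lists of 108 further genes, of which 103 were tested. CHIR99021 lowered 13 of the 103 and raised none, with a median difference of −0.18. VPA raised 11 and lowered 10 (median 0.03). With both compounds 8 rose and 26 fell (median −0.16). Of all genes, 1.12%, 10.9% and 15.5% passed in these comparisons. By direction, 0.114%, 6.58% and 8.43% were higher, and 1.01%, 4.27% and 7.09% were lower. The counts of the single lists below stand beside these shares.

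**Figure D5:**
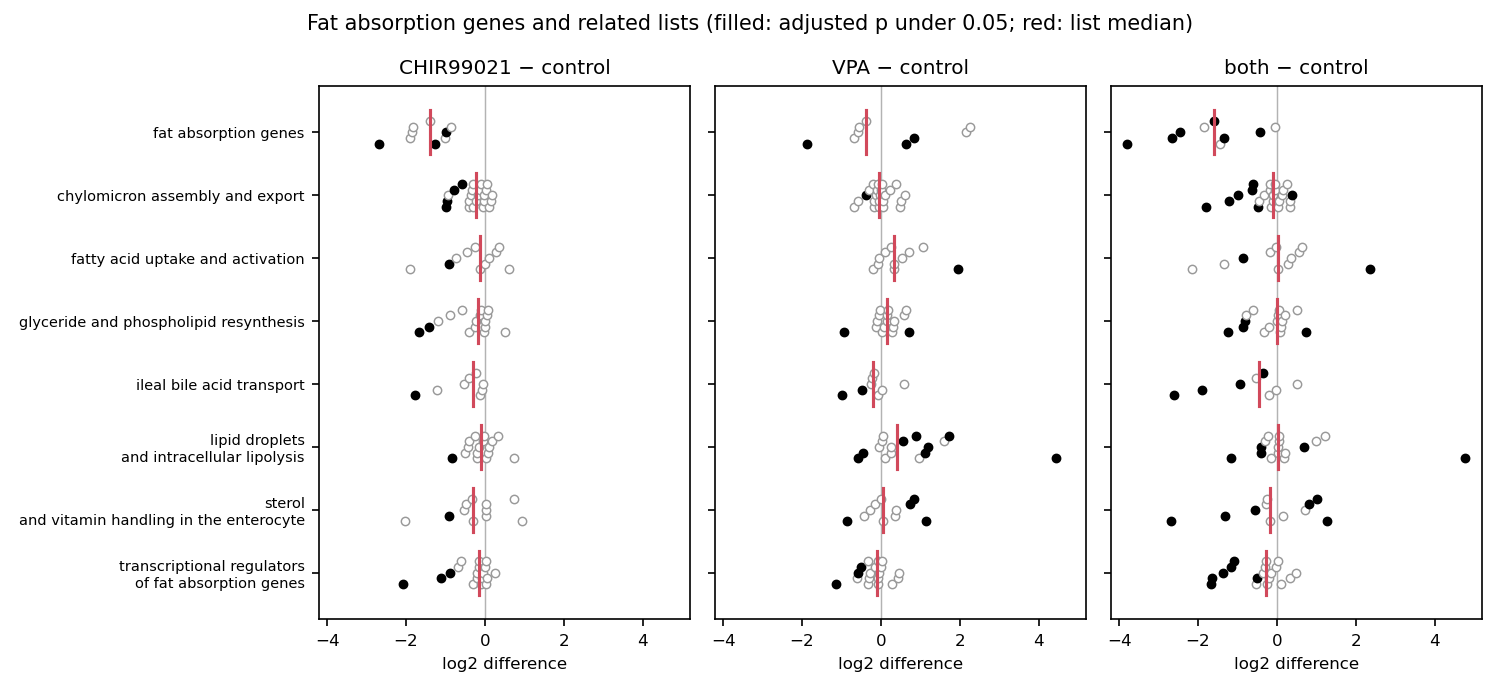
Log2 difference from control (horizontal axis) of each tested gene of the fat absorption genes and of 7 related lists (rows) with CHIR99021, VPA and both compounds, with filled points for an adjusted p under 0.05 and a red bar at the median of each list. The medians of the fat absorption genes are −1.40 with CHIR99021, −0.39 with VPA and −1.58 with both compounds, and with VPA the members lie on both sides of 0, from −1.87 to 2.27.

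Among 11 genes of fatty acid uptake and activation, the fatty acid transporter Slc27a4 fell with CHIR99021 (−0.92 ± 0.10, adjusted p = 0.0211) and with both compounds (−0.86 ± 0.10, adjusted p = 0.00371). The acyl-CoA synthetase Acsl4, which prefers arachidonic acid, rose 3.86-fold with VPA (1.95 ± 0.39, adjusted p = 0.0277) and 5.15-fold with both (2.36 ± 0.39, adjusted p = 0.0104). No other gene of this list passed against control.

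Of 16 genes of glyceride and phospholipid resynthesis, 2 fell with CHIR99021. They were Mogat2, the intestinal monoacylglycerol acyltransferase that acts upstream of Dgat1 and Dgat2 (−1.67 ± 0.21, adjusted p = 0.0284), and the glycerol-3-phosphate dehydrogenase Gpd1 (−1.41 ± 0.21, adjusted p = 0.0398). VPA raised the acyltransferase Agpat1 (0.71 ± 0.12, adjusted p = 0.0165) and lowered the lipid phosphatase Plpp2 (−0.93 ± 0.10, adjusted p = 0.0047). With both compounds Agpat1 rose (0.74) and 3 genes fell, among them Gpd1 (−1.25) and Plpp2 (−0.85).

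Among 23 genes of chylomicron assembly and export, 4 fell with CHIR99021, including the COPII coat gene Sec23a (−0.77 ± 0.10, adjusted p = 0.0312), the Apob mRNA editing enzyme Apobec1 (−0.96 ± 0.14, adjusted p = 0.0391) and Tm6sf2, needed for lipidation of the particle (−1.0 ± 0.15, adjusted p = 0.0418). VPA lowered only Mia2 of this list (−0.38 ± 0.09, adjusted p = 0.0375). With both compounds 6 fell and 1 rose. The falls included Pla2g12b, which takes part in lipoprotein loading (−1.80 ± 0.19, adjusted p = 0.00223), Sec23a (−0.99) and Tm6sf2 (−1.22).

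Of 16 lipid droplet genes, 6 rose and 2 fell with VPA. Cidea, a droplet fusion protein best known from brown fat, rose 21.8-fold with VPA (4.45 ± 0.68, adjusted p = 0.013) and 27.1-fold with both compounds (4.76 ± 0.68, adjusted p = 0.00669). With VPA the droplet coat gene Plin2 rose 2.29-fold (1.20 ± 0.15, adjusted p = 0.00668) and the lipase inhibitor G0s2 rose 1.85-fold (0.89 ± 0.14, adjusted p = 0.0146). Cideb, which takes part in lipoprotein lipidation in the liver, fell with CHIR99021 (−0.83 ± 0.09, adjusted p = 0.0198) and with both compounds (−1.17 ± 0.09, adjusted p = 0.0011). Under both compounds 2 of the 16 rose, Cidea and Hilpda (0.69 ± 0.12, adjusted p = 0.0115), and 3 fell.

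Of 11 genes of sterol and vitamin handling, the cholesterol importer Npc1l1 fell with CHIR99021 (−0.91 ± 0.09, adjusted p = 0.0145) and with both compounds (−0.57 ± 0.09, adjusted p = 0.00806). The enzyme Soat2, which makes cholesteryl ester, fell with VPA (−0.86 ± 0.09, adjusted p = 0.00438) and with both (−1.31 ± 0.09, adjusted p = 0.000819). Scarb1, a lipoprotein receptor, rose with VPA (0.74 ± 0.17, adjusted p = 0.0378) and with both (1.28 ± 0.17, adjusted p = 0.00476), and the carotene cleaving enzyme Bco1 rose with VPA (1.14 ± 0.20, adjusted p = 0.0195).

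Of 8 genes of ileal bile acid transport, the 2 subunits of the basolateral exporter fell. Slc51a fell with CHIR99021 (−1.77 ± 0.12, adjusted p = 0.0116), with VPA (−0.49 ± 0.12, adjusted p = 0.0486) and with both compounds (−2.62 ± 0.12, adjusted p = 0.000254). Slc51b fell with VPA (−0.99 ± 0.23, adjusted p = 0.0433) and with both (−1.89 ± 0.23, adjusted p = 0.00406). Nr0b2, a bile acid responsive nuclear receptor, fell with both (−0.36 ± 0.08, adjusted p = 0.0303).

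Of 18 transcriptional regulators, 3 fell with CHIR99021, 3 with VPA and 6 with both compounds, and none rose. Creb3l3, a membrane-bound factor known to activate Apoa4 in liver and intestine, fell with CHIR99021 (−2.07 ± 0.24, adjusted p = 0.0213) and with both compounds (−1.66 ± 0.24, adjusted p = 0.00634), and its VPA difference was 0.46 ± 0.24 (adjusted p = 0.278). Ppara, the fatty acid receptor that acts with RXR, fell with CHIR99021 (−0.89 ± 0.12, adjusted p = 0.0312) and with both (−1.09 ± 0.12, adjusted p = 0.0028). Hnf4g fell in the same comparisons (−1.10 and −1.36, adjusted p = 0.0447 and 0.0042). The related Hnf4a differed by −0.19, −0.30 and −0.24 with CHIR99021, VPA and both compounds (adjusted p = 0.572, 0.158 and 0.216).

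VPA lowered Nr1h3 (−1.13 ± 0.22, adjusted p = 0.026), Cdx1 (−0.58 ± 0.12, adjusted p = 0.0274) and the RXR subunit Rxra (−0.51 ± 0.12, adjusted p = 0.0424). Rxra also fell with both compounds (−1.16 ± 0.12, adjusted p = 0.00218). Adding CHIR99021 to VPA lowered Creb3l3 (−2.12 ± 0.24, adjusted p = 0.0205) and Ppara (−1.37 ± 0.12, adjusted p = 0.0133).

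Closeness of the changes was measured among the named genes tested. It is the unscaled Euclidean distance over the 6 treated minus control values, 3 treatments in 2 lines. This distance depends on the size of the changes as well as on their direction, so genes with small changes tend to lie close. Within the 9 members the closest pair was Mttp and Dgat2, at 0.657, followed by Apoa4 and Apoc3 at 0.973 and Apob and Dgat1 at 1.03. Fabp1 and Fabp2 were 1.83 apart. Outside the list, Slc6a19 was nearest to Apoa1 (1.09), followed by Aoc1 (1.73) and Cfhr2 (1.93).

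The nearest genes of Apoa4 were Apoc3, Slc25a45 (1.37) and Nat8 (1.57), and those of Apoc3 were Slc2a2 (0.944), Cox7a1 (0.956) and Apoa4. Tkfc (0.608), Mxd1 (0.666) and Cyp4f18 (0.693) were nearest to Apob. Around Mttp lay Aldh3b2 (0.319), Nckap5 (0.382) and Plekhg6 (0.392). Drc1 (0.311), the chloride exchanger Slc26a3 (0.352) and Ubald2 (0.377) were nearest to Dgat1, and Slc22a18 (0.273), Mfsd6l (0.41) and 2200002J24Rik (0.453) to Dgat2. The 6 values share the control arrays of each line, so these distances only describe the profiles.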

How the data were processed

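Total RNA of 8 organoid samples (500 ng each) was labelled in Cy5 for Agilent mouse arrays, with control RNA in Cy3, per the labels' protocols. Per the file headers, Feature Extraction 10.5.1.1 read the spots. The deposited intensity values are median spot and local background signals in both dyes, not background-subtracted. The deposited log10 ratio of each spot is the scanner software's corrected and dye-normalised Cy5 over Cy3, per the file headers. The authors' series table holds log2 values of 19228 spots, which equalled that ratio within 5e-10 on all 8 arrays, with column medians of −0.028 to 0.036, so its scale, direction and lack of further centring are known. Deposited flags mark other spot properties (above background, saturation, outliers).

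Background was corrected by normexp (offset 50), fitted without spots flagged as non-uniform or as population outliers or with a non-uniform background, which were left out. Loess was run within each array, with the 1639 control spots of 45018 at weight 0. Spots of a probe were averaged, and the brightest of a gene's probes was used. Accessions gave 27479 of 41174 probes a symbol through RefSeq (GRCm38.p6). Testing required a Cy5 signal well above background on the 2 arrays of 1 or more groups: 12776 were dim and 79 were dropped for flagged spots. Array headers name build mm9, so no probe positions are given. limma 3.58.1 (R 4.3.3) fitted 4 groups of 2 arrays together (4 residual and 2.68 prior degrees of freedom), with Benjamini-Hochberg adjustment. The fit was also run on simulated data with independent noise and no line effect, which does not test it for arrays that share a line. The number of arrays limits the precision.

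Members, gene lists and the rule for named genes were chosen with earlier results of these data known. The rule names all members and, per list and comparison with control, the 3 genes past the threshold with the smallest adjusted p. Hnf4a, Creb3l3, Ppara, Slc10a2 and Fgf15 are always named, and 3 nearest genes are named per called member. A marker is named if it changed most in its list or was not above background. The labels tie the replicate number to the organoid line, so the numbers pair the samples. Samples with the same number also deviated together from their group means (r = 0.122 to 0.755 over the 6 pairs of groups). Arrays of a line share the Cy3 control RNA and the slide, so these correlations cannot test the pairing. A fit blocked by line was tried, as were other backgrounds, normalisations, filters, probe rules, variance models and leaving out each array. Cy5 alone with the block, and leaving out spots with a background population flag, were added after seeing the data. Promoter sequences were present for 7 of the 10 genes.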

Additional observations from a re-analysis of the deposited data

Results flagged for a closer look

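The 2 organoid lines had opposite signs in 10 comparisons of members, 4 of them departures from additivity. With 1 array per line and condition, none of these differences between lines was tested. Apoa4 differed between VPA and control by 0.16 in line 1 and −1.54 in line 2, and Apoc3 by 0.018 and −1.13. Between both compounds and control, Dgat2 differed by 0.12 and −0.21. Between both compounds and CHIR99021, Apoa4 differed by −2.02 and 0.41, Fabp1 by −1.19 and 1.29, and Fabp2 by −0.31 and 1.08. The departure from additivity was −0.088 in line 1 and 1.60 in line 2 for Apoa1, −2.19 and 1.95 for Apoa4, −0.61 and 0.59 for Apob, and −1.79 and 0.77 for Apoc3. Fabp1 and Fabp2 are also the members whose Cy3 signal, from control RNA, varied most between arrays of a line, and in Cy5 alone the Fabp1 difference between both compounds and CHIR99021 was −1.61 (adjusted p = 0.00314). The part of the Cy3 channel in the difference between lines was not tested.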

How the results depend on the processing

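Of the values for each member under each alternative, 824 kept their direction and side of the threshold, 129 lost the threshold, 45 gained it and 28 reversed sign. The falls of Apoa1 and Dgat1 under both compounds against control kept theirs throughout. The cause of each shift was not tested.

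With CHIR99021 against control, the 3 members past the threshold became 0 with normexp fitted on all spots, 1 with the scanner's ratios, 8 with ratios tested against 0, 8 with only the 2 groups fitted, 1 with a variance trend and robust fitting, and 5 in Cy5 alone. Leaving out 1 array gave 0 to 5. With VPA against control, 3 became 5 against 0, and leaving out 1 array gave 0 to 5. With both compounds against control, 6 became 3 with normexp on all spots, and 2 to 6 with 1 array left out. Against VPA, 5 (215) became 0 with normexp on all spots (28), with the scanner's ratios (34) and with only the 2 groups fitted (0). With background population flags left out, 3 passed (161), namely Apoa1, Mttp and Dgat1. Fabp1 and Fabp2 were not among the 6 members tested in that setting, so their calls were not tested there rather than lost. Against CHIR99021, 2 (1930) became 1 with normexp on all spots (1630), the scanner's ratios (1336), median centring (1155) and a variance trend (1799). With only the 2 groups fitted, 0 passed (290). The count for departure from additivity stayed at 0.

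Under a replicate block by organoid line, VPA against control had 5 members past the threshold in place of 3. Counts in the other comparisons stayed within 1.5 times, at 4, 6, 6, 2 and 0. Beside the calls given with the results, the block changed no call of a member. The block raised the count of all genes to 557 with CHIR99021, against 216 without it, to 3745 with VPA against 2090, and to 4815 with both compounds against 2989. For both compounds against VPA the count rose from 215 to 613, and against CHIR99021 from 1930 to 3414.

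Over all alternatives the count of all genes lay between 0 and 4305 for CHIR99021, 120 and 7022 for VPA, 542 and 7792 for both compounds, 0 and 613 for both against VPA, and 287 and 3932 for both against CHIR99021. Median centring moved the share of higher calls to 76.7% with VPA, against 60.6% with loess, to 65.2% against 54.3% with both compounds, and to 79.1% against 62% for both against CHIR99021. In Cy5 alone the share was 22.8% for both against VPA, against 7.91% in the ratios.

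No value that reversed had passed the threshold. Without the line 2 VPA array, the VPA differences of Apoa4 and Apoc3 were 0.18 and 0.13, and over all single arrays left out they lay between −1.56 and 0.18 and between −1.24 and 0.13. Dgat2 under both compounds against control was 0.072 with the mean of all probes, −0.23 to 0.14 with 1 array left out and 0.0495 in Cy5 alone. For both compounds against CHIR99021, Fabp1 was −0.48 without the line 2 CHIR99021 array, −0.66 without the line 2 array of both compounds and −1.61 in Cy5 alone (adjusted p = 0.00314, past the threshold). There, with 1 array left out, Fabp2 lay between −0.60 and 1.37 and Apob between −1.20 and 0.038, and Dgat1 was 0.0504 with median centring and 0.032 in Cy5 alone.

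Departures from additivity also changed sign. With 1 array left out they lay between −0.99 and 0.76 for Apoa4, −0.63 and 0.61 for Apob, −1.19 and 0.17 for Apoc3, and −0.20 and 0.16 for Dgat2. For Apob they were 0.080 with median centring and 0.027 with the mean of all probes, and for Dgat2 0.039, 0.043 and, in Cy5 alone, 0.083.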

Other observations

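The spots of Fabp1 on the VPA and control arrays, and 4 of the 8 spots of the brightest Fabp2 probe, carried a population flag on their local background. So did the brightest Apob probe on the 2 arrays with both compounds, the only treatment in which Apob passed against control. The second Apob probe did not carry it. With such spots also left out, Fabp1, Fabp2 and Apob were not tested, and 6 members passed the filter (Apoa1, Apoa4, Apoc3, Mttp, Dgat1 and Dgat2).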
